A study of Mus musculus with 44 samples.

Results

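NF-kB peaks reported for LPS-treated wild-type (WT) macrophages were compared with those reported for untreated WT macrophages. Any peak of one list that overlapped a peak of the other by at least 1 bp was called shared, and the rest were called LPS-only or untreated-only. The LPS list held 2494 peaks, of which 1546 were LPS-only and 948 were shared. The untreated list held 1462 peaks, of which 487 were untreated-only and 975 were shared. Together they are 3956 of the 15489 peaks in the 8 deposited lists of the series.

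The cells were bone marrow-derived macrophages of C57BL/6 mice, differentiated in 10% serum and 30 ng/ml M-CSF and used at day 8 to day 10. The LPS group comprised 3 NF-kB ChIP-seq samples of WT cells given 10 ng/ml lipopolysaccharide (LPS) for 6 hours, and the untreated group comprised 3 NF-kB ChIP-seq samples of WT cells without LPS. Per the labels, the 3 samples of a group point to 1 merged list, so each group has 1 value and no spread between replicates, and no difference between the groups was tested. Another 6 lists of the series served only to ask where else a WT NF-kB peak was found: NF-kB in Dnmt3a knockout (KO) macrophages with LPS (2376 peaks) and without it (3065), and IRF3 in WT with LPS (1424), untreated WT (1169), KO with LPS (1792) and untreated KO (1707). Dnmt3a is a de novo DNA methyltransferase. The labels name neither the NF-kB subunit that the antibody recognised nor the animals behind each sample, and nothing in these lists measures expression, so the labelled cell type could not be checked against marker levels.

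LPS is a component of the outer membrane of Gram-negative bacteria that activates macrophages through Toll-like receptor 4. In resting cells NF-kB dimers are held in the cytoplasm by IkB proteins. Receptor signalling leads to IkB degradation, the dimers enter the nucleus, and they bind kB sites near genes for cytokines, antimicrobial and survival proteins and for the inhibitors that later switch the response off. IRF3, on another branch of the same receptor's signalling, activates type I interferon genes. In ChIP-seq of a bulk culture, a site bound in few cells and a site bound weakly in many cannot be told apart.

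Promoter sequence was available for the windows from 250 bases before to 50 bases after annotated start sites in RefSeq (GRCm38.p6, the assembly also named mm10). The sequences shown are the 250 bases before the start, 5′ to 3′ in the direction of transcription. They were taken for LPS-only peaks under 500 bp that were also in the KO LPS list and not in the untreated KO list, that covered at least 100 bases upstream of a start and that did not lie at a protein-coding gene's end within its span. Capitals mark matches to the kB consensus, on either strand. Tnfaip3, the gene of A20, a ubiquitin-editing inhibitor of NF-kB signalling, is on the minus strand (chr10:19015411-19015660). Nlrp3, which encodes the sensor of an inflammasome, is on the plus strand (chr11:59541319-59541568). Gm32287, a predicted gene on the minus strand (chr2:167777415-167777664), lies under the best-ranked such peak. Gm16174, a predicted gene on the plus strand (chr7:19816335-19816584), lies inside the span of Bcl3, which encodes a nuclear IkB protein.
Tnfaip3: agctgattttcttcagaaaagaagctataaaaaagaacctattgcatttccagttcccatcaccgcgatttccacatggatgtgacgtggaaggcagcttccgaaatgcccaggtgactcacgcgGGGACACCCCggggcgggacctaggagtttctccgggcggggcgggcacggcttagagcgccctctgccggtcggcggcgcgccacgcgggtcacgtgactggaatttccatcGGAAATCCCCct
Nlrp3: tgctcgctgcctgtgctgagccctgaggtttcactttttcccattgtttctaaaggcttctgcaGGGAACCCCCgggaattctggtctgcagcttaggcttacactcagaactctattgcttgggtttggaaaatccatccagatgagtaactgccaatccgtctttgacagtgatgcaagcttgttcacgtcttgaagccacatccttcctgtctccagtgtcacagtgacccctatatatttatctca
Gm32287: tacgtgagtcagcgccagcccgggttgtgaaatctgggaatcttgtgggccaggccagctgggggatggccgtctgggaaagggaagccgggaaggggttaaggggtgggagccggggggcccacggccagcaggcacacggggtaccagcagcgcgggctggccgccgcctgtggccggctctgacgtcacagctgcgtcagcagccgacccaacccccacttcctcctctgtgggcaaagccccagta
Gm16174: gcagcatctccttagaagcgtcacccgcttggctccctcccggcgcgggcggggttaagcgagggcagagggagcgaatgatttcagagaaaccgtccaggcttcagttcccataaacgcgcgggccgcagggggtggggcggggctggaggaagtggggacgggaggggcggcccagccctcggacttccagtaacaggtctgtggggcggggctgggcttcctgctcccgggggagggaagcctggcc

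The Tnfaip3 peak spanned 302 bp (chr10:19015399-19015700), or positions -290 to 11 relative to the start site, and so covered all 250 upstream bases. They held 2 kB matches, GGGACACCCC at position -125 on the strand of transcription and GGAAATCCCC at position -12, which reads as the consensus on the opposite strand. A match to the AP-1 motif TGANTCA began at position -136, beside the distal kB match and not overlapping it. The Nlrp3 peak spanned 149 bp (chr11:59541406-59541554), positions -163 to -15. Its window held 1 kB match, GGGAACCCCC at position -186, outside the peak. The printed Gm32287 and Gm16174 sequences held no kB match, and the Gm32287 sequence held 1 AP-1 match at position -246. These matches are descriptions of the letters and show no binding at a given base.

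Among the promoters under LPS-only peaks were those of Tnfaip3 and Irak3, both genes of signalling inhibitors, and Nlrp3, a sensor gene. In all, 13 LPS-only peaks overlapped 16 promoter windows (0.0487% of 32851 windows), and 11 of the 13 were under 500 bp. Of the 16 windows, 9 belonged to predicted Gm genes. Of these 13 peaks, 9 were also in the KO LPS list, and 7 of the 9 were not in the untreated KO list. The 7 lay at Tnfaip3, Nlrp3, Znrf1 (a ubiquitin ligase gene), Lrmda, the divergent pair Irak3 and Gm38500, Gm16174 inside Bcl3, and the pair Gm32287 and Gm14321. Irak3 encodes IRAK-M, a kinase-like inhibitor of Toll-like receptor signalling, and its 284 bp peak (chr10:120201329-120201612) covered positions -15 to 268. The 8 windows under shared peaks of the LPS list (0.0244%) all belonged to predicted Gm genes, and none of those peaks was under 500 bp. A single window, of Elobl, lay under an untreated-only peak (0.00304%).

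A kB match was present in 3 of the 16 windows under LPS-only peaks (Tnfaip3, Nlrp3 and Lrmda), and in 2 of them it lay in the overlapped bases. Among all windows, 4.51% held one. In Lrmda the match was GGGGACCCCC. A stricter consensus matched none of the 16, against 0.411% of all windows, and a looser one matched 4, against 11.2%. Of the 8 windows under shared peaks, 1 held a kB match (Gm36816). The AP-1 motif matched 3 of the 16 windows, against 7.81% of all windows.

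**Figure D1:**
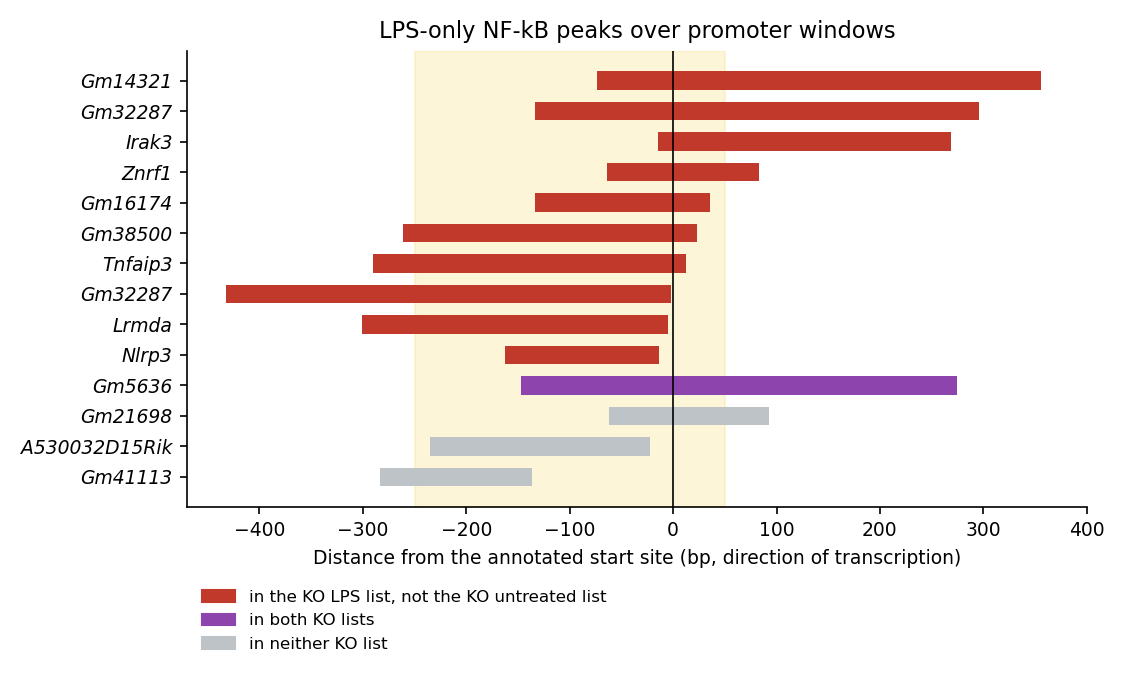
Position of LPS-only NF-kB peaks (bars) relative to the annotated start site, in bp in the direction of transcription, for 14 of the 16 promoter windows they overlap; the Gm46074 and Usp17lc windows, whose peaks reach beyond the axis, are left out. The shaded band is the window from 250 bases before to 50 after the start, and colours show presence in the Dnmt3a KO NF-kB lists: the Tnfaip3, Nlrp3, Irak3, Znrf1, Lrmda and Gm16174 bars are all of peaks found in the KO LPS list and not in the untreated KO list.

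Genes of the NF-kB response with a nearby peak had it, in nearly all cases, in the LPS list alone. Of 132 genes in 6 lists of NF-kB and inflammatory genes, 12 had an LPS-only peak within 10 kb (9.09%; exact 95% interval 4.79 to 15.3%, which like all intervals here covers counting error only). Of all 21887 protein-coding genes, 2.63% had one. A shared peak was near 1 of the 132 (Slc7a11, a cystine transporter gene), against 1.7% of all genes. An untreated-only peak was near 1 (Tlr2, a receptor gene for bacterial lipoproteins), against 0.854% of all genes. With LPS-only peaks limited to those under 500 bp the count was 11 of 132 (8.33%), against 0.991% of all genes. Within 50 kb, LPS-only peaks were near 15 of the 132 (6.12% of all genes), shared peaks near 4 (3.79%) and untreated-only peaks near 2 (1.91%). Within 1 kb the counts were 8 (1.87% of all genes), 1 (1.24%) and 0 (0.644%). The lists were drawn up with earlier results of these data known, among them the peaks near Tnfaip3, Sod2, Malt1, Bcl3 and Fth1, so the counts describe the lists and are no independent evidence.

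Of 15 feedback inhibitor genes, 3 had an LPS-only peak within 10 kb (against 2.63% of all genes), and none had a shared or an untreated-only one. They were Tnfaip3, Irak3 and Tnip1, which encodes a partner of A20. The deposited signal value was 16.8 for the Tnfaip3 peak, 12.3 for the Tnip1 peak and 8.50 for the Irak3 peak, against a median of 10.4 over all LPS-only peaks. The Tnip1 peak spanned 519 bp inside the gene (chr11:54936198-54936716), 26224 bp from the nearest annotated start of that gene. Socs3, another feedback gene, which encodes an inhibitor of cytokine receptor signalling, had a 294 bp LPS-only peak 19323 bp away (chr11:117946463-117946756) with a signal value of 17.1. Among 11 subunit and inhibitor genes, Bcl3 had the one LPS-only peak within 10 kb, 170 bp wide with a signal value of 8.34. Relb, a subunit gene, had a 740 bp LPS-only peak 42791 bp away that was in no other list. Nfkbia, which encodes the inhibitor IkBa and is a textbook NF-kB target, had no peak within 10 kb in either WT list.

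Antimicrobial and effector genes contributed 5 of 25. Sod2, which encodes the mitochondrial superoxide dismutase, had a 175 bp peak inside the gene (chr17:13010180-13010354) with a signal value of 16.6. Fth1, which encodes the heavy chain of ferritin, the iron store, had 2 LPS-only peaks, a 473 bp peak 5327 bp away (chr19:9974801-9975273) with a signal value of 21.2 and a 150 bp peak 1973 bp away (chr19:9978478-9978627) with a value of 10.7. Ptges, which encodes prostaglandin E synthase, also had 2 peaks, both inside the gene, 121 and 177 bp wide with signal values of 11.3 each. The 121 bp peak lay 22008 bp and the 177 bp peak 10154 bp from the nearest annotated start, that of Ptges. Fpr2, a formyl peptide receptor gene, had a 180 bp peak 6903 bp away with a signal value of 13.4, and the related Fpr1 lay 16916 bp from the same peak. The Nlrp3 peak had a signal value of 10.5. The LPS-only peaks near these genes carried ranks spread over the whole list. The first Fth1 peak was at rank 119 and the second Ptges peak at rank 2241 of 2494.

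Receptor signalling, cytokine and survival genes each had 1 member with an LPS-only peak within 10 kb, shares of 3.33%, 3.13% and 5.26%, against 2.63% of all genes. Among 30 genes listed here under Toll-like receptor 4 to NF-kB signalling, Malt1 had a 245 bp LPS-only peak 284 bp from the gene. Malt1 encodes a paracaspase, and its peak had a signal value of 14.9. Among 32 cytokine and chemokine genes, Cxcl16 alone had an LPS-only peak within 10 kb, 206 bp wide and 7881 bp away, and Zmynd15 lay nearer to it at 1661 bp. Il1b, a cytokine gene of the same list, had none in either WT list. Among 19 survival and adhesion genes, Tnfrsf1b, which encodes a TNF receptor, had a 185 bp LPS-only peak 7655 bp away. Another LPS-only peak, 231 bp wide, lay 14619 bp from Tnfrsf1b and nearer to Tnfrsf8. It was in the KO LPS list and not in the untreated KO list.

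The 14 LPS-only peaks within 10 kb of these 12 genes are described next by width and by presence in the other lists. Several of them were known when the gene lists were drawn up, so their common features are no independent evidence. Of the 14, 13 were under 500 bp, with a median width of 182.5 bp and a range of 121 to 519 bp. Over all LPS-only peaks the median width was 714 bp. In the Dnmt3a KO macrophages, 13 of the 14 positions were in the LPS list and 0 were in the untreated list, and the exception was the Tnfrsf1b peak, which was in neither. None of the 14 was in any of the 4 IRF3 lists. Among the 236 LPS-only peaks under 500 bp within 10 kb of any protein-coding gene, 28.4% were in the KO LPS list, 20.8% in the untreated KO list and 8.05% in the IRF3 list of WT with LPS. The peaks near the 12 genes were mostly of low confidence within the list: 2 of the 14 had a deposited q-value under 0.05 (0.00818 for the first Fth1 peak and 0.0348 for Sod2). The q-value was 0.0623 for Malt1, 0.0695 for Tnfaip3, 0.352 for Nlrp3, 0.683 for Irak3 and 0.869 for Bcl3.

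**Figure D2:**
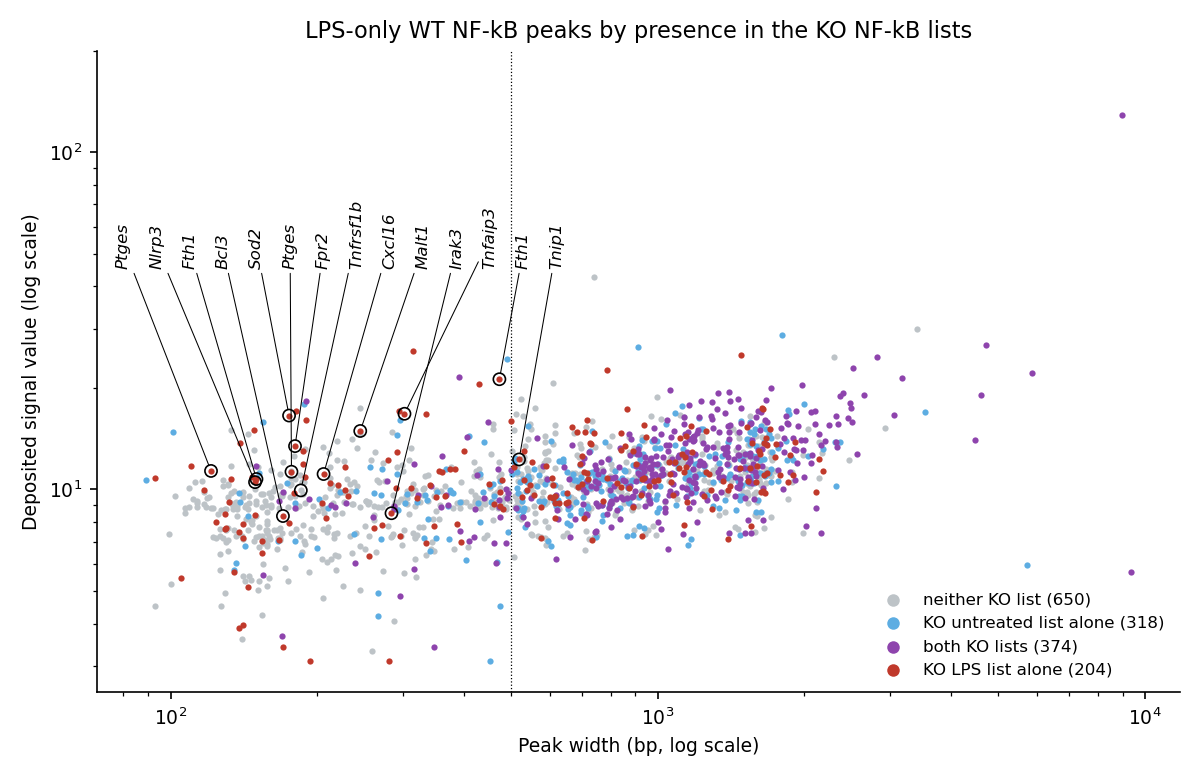
Deposited signal value against width for the 1546 LPS-only WT NF-kB peaks, both on log scales, coloured by presence in the NF-kB lists of Dnmt3a KO macrophages. The dotted line is at 500 bp and circles mark the 14 peaks within 10 kb of a gene of the NF-kB and inflammatory lists, of which 13 lie left of the line and 13 are in the KO LPS list alone.

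Each of the other gene groups had at most 2 genes near LPS-only peaks, and since 2.63% of all genes had one, counts this small say nothing particular about the groups. Of 37 interferon-stimulated genes, 1 had an LPS-only peak within 10 kb, a 226 bp peak inside Sp110 at rank 2210, and 1 had an untreated-only peak, inside Sp100 at rank 1166. Neither position was in a KO NF-kB list, but the Sp110 position was in the IRF3 list of KO with LPS. Of 24 immediate early and AP-1 genes, Batf, which encodes a leucine zipper factor, had a 228 bp LPS-only peak inside the gene that was in the KO LPS list and not in the untreated KO list, and Dusp5, a phosphatase gene, had a shared one. Of 20 cytoskeleton and adaptor genes of phagocytes, Fyb and Arhgap24 had LPS-only peaks within 10 kb. The Fyb peak, in the gene of an adaptor of immune cell adhesion, spanned 139 bp with a signal value of 13.7. None of 30 macrophage identity genes had an LPS-only peak within 10 kb, and Fcgr1, an Fc receptor gene, had a shared peak of 2648 bp. Of 50 markers of other cell types, 1 had an LPS-only peak (Pdgfrb, a stromal receptor gene, at rank 2359) and none had a shared or untreated-only one. All T cell, B cell, neutrophil, erythroid and dendritic cell markers were without one.

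The best-ranked LPS-only peaks included wide ones in both KO NF-kB lists and narrow ones in the KO LPS list alone. Of the 10 best-ranked with a gene within 100 kb, 6 were 2061 to 4714 bp wide, lay near Gm21119, Sfi1, Spin4, Ssxb9, Rab30 and A630073D07Rik, and were in both KO NF-kB lists. The other 4 were under 500 bp, lay near Fgd2, Sned1, Fth1 and Cebpb, and were in the KO LPS list but not in the untreated KO list or any IRF3 list. Fgd2 encodes a guanine nucleotide exchange factor for Cdc42, and its 315 bp peak (chr17:29395402-29395716) lay 15867 bp away at rank 65 with a signal value of 25.7. Cebpb encodes a transcription factor of inflammatory and acute-phase genes. It was the nearest protein-coding gene to 2 narrow LPS-only peaks, the 430 bp peak over Gm32287 (chr2:167777417-167777846, 86985 bp from Cebpb, signal value 20.6) and a 190 bp peak 63584 bp from Cebpb (chr2:167754016-167754205, signal value 16.1). Both were in the KO LPS list and not in the untreated KO list.

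Of the 15 best-ranked LPS-only peaks under 500 bp with a gene within 100 kb, 10 were in the KO LPS list and 0 in the untreated KO list. The best-ranked LPS-only peak under 500 bp, at rank 26 and 155 bp wide, has no gene within 100 kb and was in both KO lists. Of the 15 best-ranked under 500 bp at any distance from a gene, 12 were in the KO LPS list and 1 in the untreated KO list. The 10 near genes were the peaks near Fgd2, Sned1, Fth1, Socs3, Sod2, Fam107a, Malt1 and Tnfaip3 and the pair near Cebpb. The remaining 5, near Tafa2, Slc13a3, Papss1, Cyp39a1 and Gm9758, were in neither. The 10 best-ranked LPS-only peaks at a gene end included those at Malt1, Tnfaip3 and Nlrp3. Another, at Il20, a cytokine gene, was 763 bp wide and in neither KO NF-kB list. The rest lay at Gm21119, BB287469, Gm7592, Gm21190, Usp17lc and Gm21698. Of these 10 peaks, 5 were in the KO LPS list and 2 in the untreated KO list. Names give the closest gene only. Whether a peak acts on that gene was not measured.

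Peaks found in both treatments were wider and better ranked than LPS-only peaks. The classes were set by overlap of these same intervals, and a wider interval meets that rule more easily. Width is therefore not independent of class. The median width was 714 bp for LPS-only peaks (interquartile range 311 to 1212 bp), 1622.5 bp for shared peaks of the LPS list and 657 bp for untreated-only peaks. Peaks under 500 bp made up 36.0% of LPS-only peaks (33.6 to 38.4%), 6.22% of shared peaks of the LPS list (4.77 to 7.95%) and 41.3% of untreated-only peaks (36.9 to 45.8%). A deposited q-value under 0.05 was found for 44 LPS-only peaks (2.85%), 286 shared peaks of the LPS list (30.2%) and 1 untreated-only peak. The 10 best-ranked shared peaks with a gene within 100 kb were 1587 to 10658 bp wide and in at least 5 of the 6 other lists. Their nearest genes included Vmn1r2 (80940 bp away), Zfp825 (34588 bp), Vmn2r129 (899 bp), Gm15319 (6119 bp) and Mid1 (7888 bp). These peaks included 2 near Gm21119, where an LPS-only peak also lay. Sheared fragments were 100 to 300 bp long, per the labels.

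**Figure D3:**
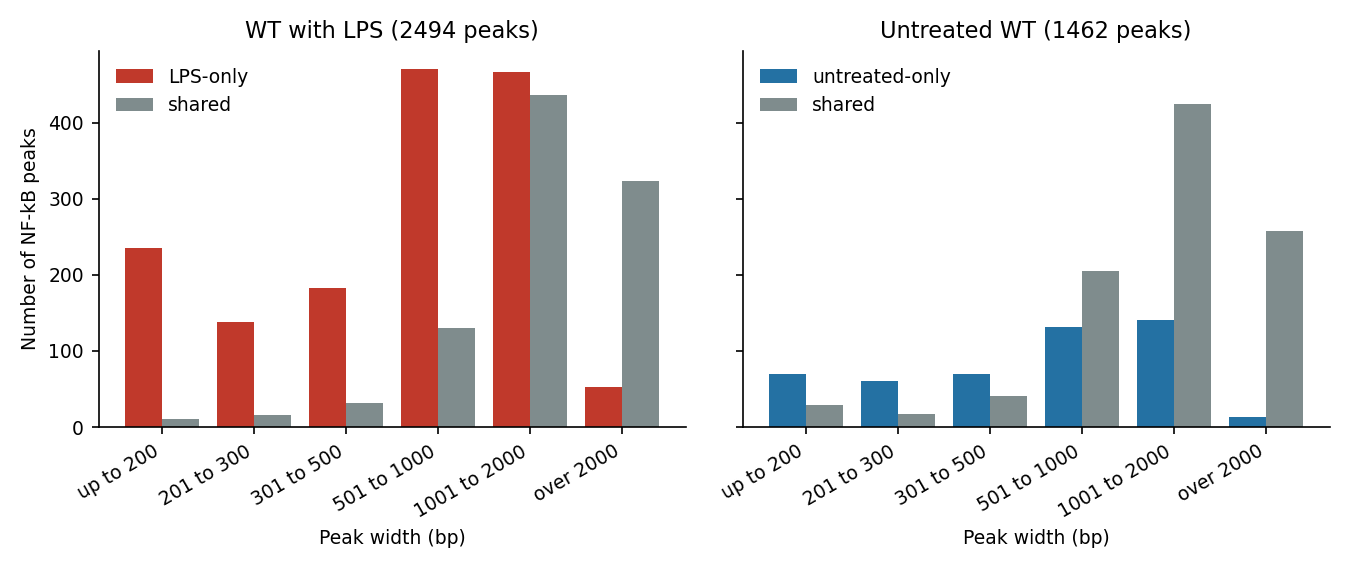
Number of WT NF-kB peaks by width in bp, for the LPS list (left, LPS-only and shared) and the untreated list (right, untreated-only and shared). Peaks under 500 bp are mostly of one treatment alone (556 LPS-only against 59 shared in the LPS list), while peaks over 2000 bp are mostly shared.

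The shared part of a list followed rank. Of the 250 best-ranked LPS peaks, 90.0% were in the untreated list, and of the lowest-ranked 10% of peaks 10.0% were. In the untreated list the share was 99.3% in the best-ranked 10% of peaks and 38.4% in the lowest-ranked 10%. Over the whole lists, 38.0% of LPS peaks (36.1 to 39.9%) and 66.7% of untreated peaks (64.2 to 69.1%) were shared. With a q-value under 0.05 required in the list counted, 86.7% of LPS peaks and 99.3% of untreated peaks were shared, and among peaks under 500 bp 9.59% and 30.0% were. With both lists at the length of the shorter there were 695 LPS-only and 653 untreated-only peaks, counts that equal lengths bring together by construction. The depth of sequencing is unknown, and its part in the length of the lists was not tested.

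**Figure D4:**
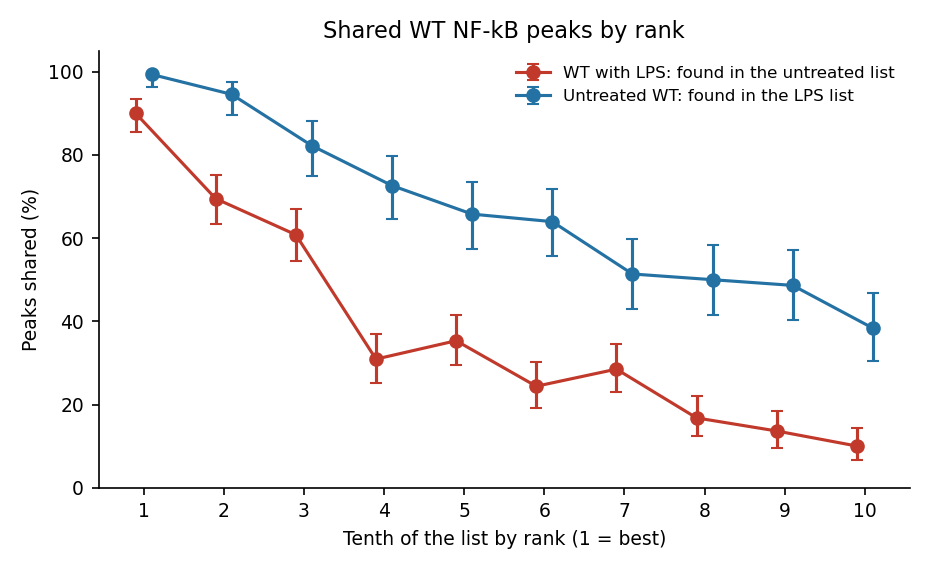
Percentage of WT NF-kB peaks shared with the other treatment in each of 10 equal bins of the list by rank, with exact 95% intervals. The LPS list runs between 90.0% in the best-ranked bin and 10.0% in the lowest, and the untreated list between 99.3% and 38.4%.

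The Dnmt3a KO lists gave a second view of each class, since they were not used to define it. Of the LPS-only peaks, 37.4% were in the KO LPS list (35.0 to 39.9%) and 44.8% in the untreated KO list (42.3 to 47.3%), so that as a whole they were not found in KO cells with LPS more often than in KO cells without it. Shared peaks of the LPS list were in the KO LPS list in 82.9% of cases and in the untreated KO list in 86.4%, and untreated-only peaks in 27.7% and 37.2%. The untreated KO list is the longer of the KO lists. Of the 44 LPS-only peaks with a q-value under 0.05, 42 were in the KO LPS list and 33 in the untreated KO list.

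LPS-only peaks of different width had different shares in these lists. Of the 990 that were 500 bp or wider, 119 were in the KO LPS list alone of the KO NF-kB lists, 251 in the untreated KO list alone, 328 in both and 292 in neither. Of the 556 under 500 bp, 85 were in the KO LPS list alone, 67 in the untreated KO list alone, 46 in both and 358 in neither. The 85 lay within 10 kb of a protein-coding gene in 54.1% of cases, the 67 in 41.8%, the 46 in 45.7% and the 358 in 39.4%. A signal value of at least 15 was found for 11 of the 85, 4 of the 67, 3 of the 46 and 4 of the 358. In total 501 LPS-only peaks (32.4%) were in none of the 6 other lists, and 321 of these were under 500 bp. Among shared peaks of the LPS list 26 (2.74%) were in none, and 358 (37.8%) were in all 6.

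**Figure D5:**
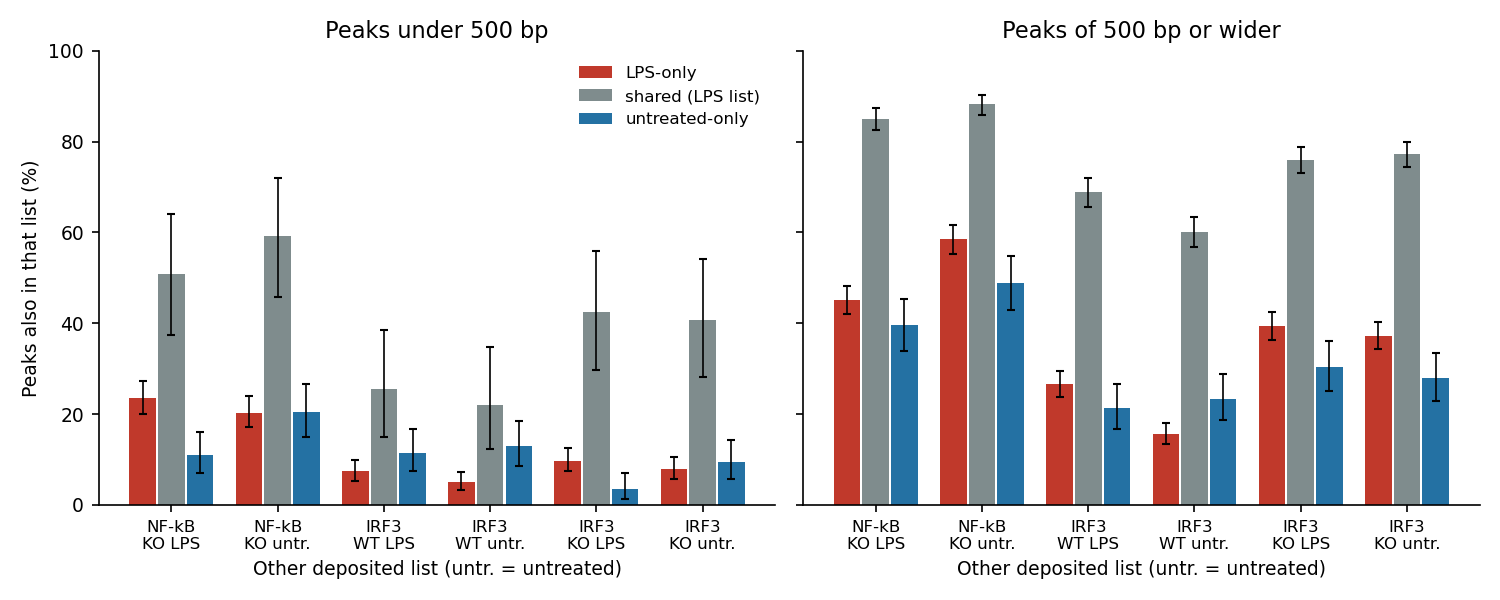
Percentage of LPS-only, shared and untreated-only WT NF-kB peaks found in each of the 6 other deposited lists, for peaks under 500 bp (left) and of 500 bp or wider (right), with exact 95% intervals. Among LPS-only peaks under 500 bp 23.6% are in the KO LPS list and 20.3% in the untreated KO list, and shared peaks are above both other classes in every list.

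IRF3 was reported at fewer of the LPS-only positions than at shared ones. Of LPS-only peaks, 19.7% were in the IRF3 list of WT with LPS and 11.8% in that of untreated WT. Of shared peaks of the LPS list, 66.1% and 57.8% were, and of untreated-only peaks 17.2% and 19.1%. Among LPS-only peaks under 500 bp the shares were 7.37% and 5.04%, and among shared peaks of the LPS list under 500 bp 25.4% and 22.0%. The part of peak width in these shares was not tested. The IRF3 list of WT with LPS merges 2 samples and that of untreated WT 3.

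The 3 classes had similar shares of peaks in and near genes. A protein-coding gene span was overlapped by 29.3% of LPS-only peaks (27.04 to 31.6%), 30.2% of shared peaks of the LPS list and 30.2% of untreated-only peaks. The share within 10 kb of a gene was 39.5%, 38.4% and 38.6%. Within 1 kb of an annotated start site lay 21 of 1490 LPS-only peaks (1.41%), 15 of 917 shared peaks of the LPS list (1.64%) and 6 of 474 untreated-only peaks (1.27%), with chromosome 18 not covered. Among LPS-only peaks the share was 2.97% for those under 500 bp (16 of 538, 1.71 to 4.78%) and 0.525% for wider ones (5 of 952, 0.171 to 1.22%). The nearest untreated peak lay a median of 463000 bp from an LPS-only peak, and 14 LPS-only peaks lay within 500 bp of an untreated peak without overlapping it. Predicted Gm and Speer genes were nearest to 8.21% of LPS-only peaks, 5.59% of shared peaks of the LPS list and 7.19% of untreated-only peaks. Such genes and the vomeronasal and Zfp genes occur in families of similar copies, between which reads can be shared.

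The 10 best-ranked untreated-only peaks with a gene within 100 kb lay near Blcap, Fbxw4, Cdc42bpa, Pth2r, Zfp872, Ust, Med10, Arl15, Vmn2r92 and St3gal4, at ranks 118 to 299 of 1462. Of these 10, 2 were under 500 bp, 5 were in the KO LPS list and 6 in the untreated KO list. The untreated-only peak near Tlr2 was 1362 bp wide, 5115 bp from the gene and at rank 1285, and it was in both KO NF-kB lists.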

How the data were processed

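NF-kB peaks of WT macrophages with and without LPS were taken from 2 of 8 peak lists deposited by the authors, 1 per factor, genotype and treatment, each merging its group's replicates per the labels. Per the submitters' processing notes coordinates are mm10, and the tools include MACS2 2.1.1, HOMER 4.9, deepTools 3.5.0 and Picard 2.8.0. For the aligner, settings, merging program and threshold, the sources used here give nothing. The lists have no header. The deposited signal value is a score of the authors without stated normalization, and each peak has a deposited p-value and q-value. These served only to describe, rank (p-value, ties by signal value, width and position) and filter peaks within a list.

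Overlaps of at least 1 bp, distances and counts were computed with Python 3.11.15, pandas 2.3.3 and numpy 2.4.6, and exact Clopper-Pearson 95% intervals with SciPy 1.17.1. The counting was tested on simulated intervals, and 6 checks passed. Gene spans (21887 protein-coding genes) and 32851 promoter windows of RefSeq came from tables of GRCm38.p6. The span table has no strand or exons, and chromosome 18 is not covered by the window table. Of 296 listed symbols 293 matched a gene. Genes were named where they were nearest to the 10 best-ranked peaks per class, the 15 best-ranked LPS-only peaks under 500 bp or the 10 best-ranked at a gene end, or were list members with a peak within 10 kb (within 50 kb for inflammatory lists). The members, lists and naming rule were chosen with earlier results of these data known. Read depth is unknown, a merged list gives no replicate spread, and no test was made. The alternatives changed the overlap needed, the q-value, list length, width, distance and motif. The result for 1 listed gene is left out. Peak lists allow no check of the Dnmt3a deletion. Input, ATAC-seq and bisulfite data were not used here.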

Additional observations from a re-analysis of the deposited data

How the results depend on the processing

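No paired analysis was possible because each group has 1 merged list and no column carries a replicate number, and leaving out a replicate could not be run for the same reason. The planned motif search in whole peaks or at peak centres was not run, since no genome sequence was used here. Depth is unknown, which limits what absence from a list shows.

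With at least 50% of a peak covered, the shared part was 34.7% of LPS peaks and 63.7% of untreated peaks, and LPS-only peaks were in the KO LPS list in 33.3% and the untreated KO list in 41.5% of cases. With a q-value under 0.05 the shared parts were 86.7 and 99.3%, with 44 LPS-only peaks and 1 untreated-only peak. Of those 44, 22.7% were under 500 bp, 95.5% were in the KO LPS list, 75.0% in the untreated KO list and 31.8% in a gene span. At the length of the shorter list the shared parts were 52.5 and 55.3%, with 695 LPS-only peaks, 18.4% of them under 500 bp. Among peaks under 500 bp the shared parts were 9.59 and 30.0%, with 556 LPS-only and 201 untreated-only peaks, and the LPS-only ones were in the KO lists in 23.6% (LPS) and 20.3% (untreated) of cases. Without regions of all 8 lists the shared parts were 27.5 and 55.1%. In each of these settings the cause was not tested.

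Of the 132 inflammatory genes, 12 had an LPS-only peak within 10 kb, 8 within 1 kb, 15 within 50 kb, 11 with peaks under 500 bp, 9 at equal list length (without Bcl3, Irak3 and Tnfrsf1b) and 2 with a q-value under 0.05 (Fth1 and Sod2). Untreated-only peaks were near 1 of them, 2 within 50 kb and 0 within 1 kb, with a q-value under 0.05 or with peaks under 500 bp. Shared peaks were near 1, 4 within 50 kb and 0 with a q-value under 0.05 or with peaks under 500 bp. The stricter kB consensus matched 0 windows. Joining touching peaks of a list, chosen after seeing the data, left 1479 LPS-only and 466 untreated-only peaks and all 12 genes.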

Other observations

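Further LPS-only peaks under 500 bp that were in the KO LPS list and not in the untreated KO list lay near genes outside the lists. In all, 46 of 85 such peaks (54.1%) lay within 10 kb of a protein-coding gene, those near list genes included. Among all LPS-only peaks under 500 bp the share was 42.4%. The genes that follow were chosen after their values were seen and do not represent the 46. Others of the 46 lay near Grid1, Dnah7b, Olfr769, Tmem196, Ntn4, Cep128, Borcs5 and St18, among further genes not described here. Aoah, which encodes an enzyme that removes acyl chains from LPS, had a 351 bp peak 6850 bp away with a signal value of 9.50. Zc3h12c, which encodes a zinc finger protein of the Regnase family, had a 149 bp peak 5952 bp away. Mefv, which encodes pyrin, the sensor of another inflammasome, had a 189 bp peak 5038 bp away with a signal value of 10.9. Ets2, a transcription factor gene, had a 117 bp peak 7922 bp away. Lpcat2, which encodes an enzyme of platelet-activating factor synthesis, had a 129 bp peak inside the gene, and Stk40 had a 179 bp peak inside the gene. Tnfrsf8, which encodes the receptor CD30, lay 5413 bp from a 231 bp peak, the one 14619 bp from the list gene Tnfrsf1b. The q-values of these 7 peaks lay between 0.439 (Stk40) and 0.904 (Ets2 and Mefv), so within the list each is of low confidence.

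Joining peaks that touched end to end within a list removed 95 peaks of the LPS list and 71 of the untreated list. An example is a pair inside Cul5 with signal values of 11.5 each.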
